A study of Mus musculus with 6 samples.

Results

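Cystatins are small secreted proteins, and 6 of their genes, Cst3, Cst8, Cst9, Cst11, Cst12 and Cst13, were taken by gene name from the deposited table of 44065 genes measured in mouse testis. All 6 were found, and 5 of them, all but Cst11, passed a filter of at least 0.5 FPKM in at least 3 of the 6 libraries, as did 19201 genes in all. FPKM values are levels corrected for gene length and library size. The animals were male C57BL/6 mice aged 6 weeks at the start and exposed for 10 weeks, and their testes gave total RNA that was sequenced after removal of ribosomal RNA. The sedentary group (ST) had 3 libraries and the control group (CT) had 3, given as biological replicates, with no genotype or drug in either. How sedentary behaviour was imposed is not given in the sources used here, and the group with compensating physical activity was not analysed here. The members were chosen by name with their FPKM in the ST and CT libraries in view, and these are the values that selected them, so the differences of the 6 members between the groups are described below with no test and no p-value.

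Classical cystatins of the type 2 family bind the active cleft of papain-like cysteine proteases such as the cathepsins and block it. Cst3 encodes cystatin C, the widely secreted inhibitor of this kind. A second branch, the CRES subgroup (cystatin-related epididymal spermatogenic), lacks part of the conserved inhibitory sites and is made mainly in the reproductive tract. It includes Cst8 (CRES), Cst9 (testatin), Cst11 (CRES2), Cst12 (CRES3) and Cst13 (also named Cymg1). In mouse, testatin was described in the Sertoli lineage, the somatic cells that nurse the germ cells, and CRES3 likewise in Sertoli cells. Cst8 is made in round spermatids and in the epididymis, the duct in which sperm mature, and its protein was found in the sperm acrosome. Cst13 transcripts were described in mouse spermatogenic cells.

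The stretches before the start sites of the 2 members that were higher in every ST library, Cst9 and Cst12, and of the pair described in germ cells, Cst8 and Cst13, are shown so that the letters behind each gene can be compared. They come from RefSeq on GRCm38.p6, which matched 5 of the 6 members, and run along the plus strand of chromosome 2. Each ends before the most upstream transcript start in RefSeq or GENCODE M21. Cst9 is chr2:148834897-148835146, Cst12 is chr2:148789115-148789360, Cst8 is chr2:148798589-148798784 and Cst13 is chr2:148819849-148820080. The Cst8 site lies at chr2:148798781-148798809, just inside the longer GENCODE transcript. Capitals mark motif matches.
Cst9: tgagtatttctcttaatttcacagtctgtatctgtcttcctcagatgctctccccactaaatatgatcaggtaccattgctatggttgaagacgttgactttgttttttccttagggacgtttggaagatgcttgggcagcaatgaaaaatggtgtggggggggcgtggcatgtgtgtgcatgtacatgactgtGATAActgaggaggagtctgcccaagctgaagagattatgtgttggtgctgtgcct
Cst12: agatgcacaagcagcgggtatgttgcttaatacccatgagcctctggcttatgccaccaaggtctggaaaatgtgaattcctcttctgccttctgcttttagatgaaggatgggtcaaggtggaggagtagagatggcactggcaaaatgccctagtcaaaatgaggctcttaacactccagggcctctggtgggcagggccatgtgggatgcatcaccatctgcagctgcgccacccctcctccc
Cst8: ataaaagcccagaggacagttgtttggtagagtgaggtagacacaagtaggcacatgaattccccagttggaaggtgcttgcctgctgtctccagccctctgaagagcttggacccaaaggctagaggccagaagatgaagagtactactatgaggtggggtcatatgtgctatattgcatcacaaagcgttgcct
Cst8 site: gcctgggcttcAAGGTCAggacttacata
Cst13: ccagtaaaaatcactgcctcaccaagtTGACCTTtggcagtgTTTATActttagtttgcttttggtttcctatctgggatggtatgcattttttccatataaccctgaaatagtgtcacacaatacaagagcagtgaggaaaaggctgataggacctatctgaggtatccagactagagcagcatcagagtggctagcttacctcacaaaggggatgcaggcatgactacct

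The core promoter word TATAAA, the GC box GGGCGG, the word TGACG of cAMP response elements, the word AAGGTCA bound by NR5A1 and other nuclear receptors, the SOX factor word AACAAT and the word GATAA of the GATA family were searched on both strands of RefSeq windows of 250 bases before and 50 after the start. These motifs were picked after the sequences had been seen. Cst8 and Cst13 both held AAGGTCA, a word found in 4.72% of all 32851 windows. In Cst8 it lay on the plus strand from -47 to -41 relative to the RefSeq start, and in Cst13 on the minus strand from -223 to -217, printed there as TGACCTT. Cst13 also held TATAAA on the minus strand from -208 to -203, printed as TTTATA and not overlapping the first match, and 13.6% of windows hold that word. Cst9 held GATAA from -56 to -52, as do 25.4% of windows. Cst12 held none of the 6, so the windows of Cst9 and Cst12, whose levels differed between the groups by almost the same amount, shared none of these words. Cst3 stood apart in composition, with 60.3% GC, 13 CpG and 2 GC boxes, against 46.0% to 52.7% GC and 0 to 3 CpG in the other 4 windows and medians of 52.7% and 7 CpG over all windows. A match describes letters and not binding.

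All 6 members lie in 1 cluster on chromosome 2. In the deposited table, whose genome build is not settled by the sources used here, the cluster runs from 157562855 to 157709598, a stretch of 146.7 kb with 9 cystatin genes, 6 on the plus strand and 3 on the minus strand. Their order is Cstl1, Cst11, 8030411F24Rik, Cst12, Cst8, Cst13, Cst9, 9230104L09Rik and Cst3. Each member has 3 coding exons and a coding length of 411 to 426 bases in GENCODE M21. Over the 15 pairs of members the coding sequences were 54.1% to 65.0% identical over aligned bases, with gaps left out. The highest value belonged to Cst9 and Cst12, with 241 identical bases and 92 gaps. Cst8 and Cst13 had 252 identical bases and 29 gaps, at 61.5%, so the order of pairs depends on how gaps are counted. Cst12 and 9230104L09Rik, which is not a member, reached 65.3%. The longest run of bases shared by transcripts of 2 members was 15, well under the 150 bases of a read, so the members are not near-identical copies.

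The ST libraries held 34176662 to 38148228 reads over genes and the CT libraries 28495596 to 37654913, as recovered from the FPKM values. Correlations between libraries on the log2 scale were 0.976 to 0.990, and libraries within a group differed beyond counting error in each pair, with a chi-square per degree of freedom of 7.16 to 16.9. Summed FPKM came to 423614 to 434757 in the ST libraries and to 385759 to 413388 in the CT libraries, with no overlap, and rescaling to an equal sum (TPM) moved the median log2 difference of all genes to -0.09, against 0.01 as deposited. Differences are therefore also given relative to that median. The labels name no batch. The fit over all genes used limma's moderated test on log2(FPKM + 0.5) with Benjamini-Hochberg adjustment. It called 5 of 19201 genes (0.026%), all lower in ST, while 3341 genes (17.4%) had an unadjusted p under 0.05. limma's voom on the recovered reads called 277 genes (1.44%), 61 higher (0.318%) and 216 lower (1.12%).

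Of the 5 members above the filter, the 3 ST values all lay above the 3 CT values in Cst9 and Cst12 and all below them in Cst13, and the groups overlapped in Cst3 and Cst8. Over all 19201 genes tested, 24.5% had groups that did not overlap, 13.7% higher and 10.8% lower in ST. The choice of members used this contrast, so nothing is read from the 3 of 5. All 5 were abundant, at the 95.9th to the 98.9th percentile of mean FPKM among the genes tested. In whole testis, fewer cells of a type and less RNA per cell cannot be told apart.

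**Figure D1:**
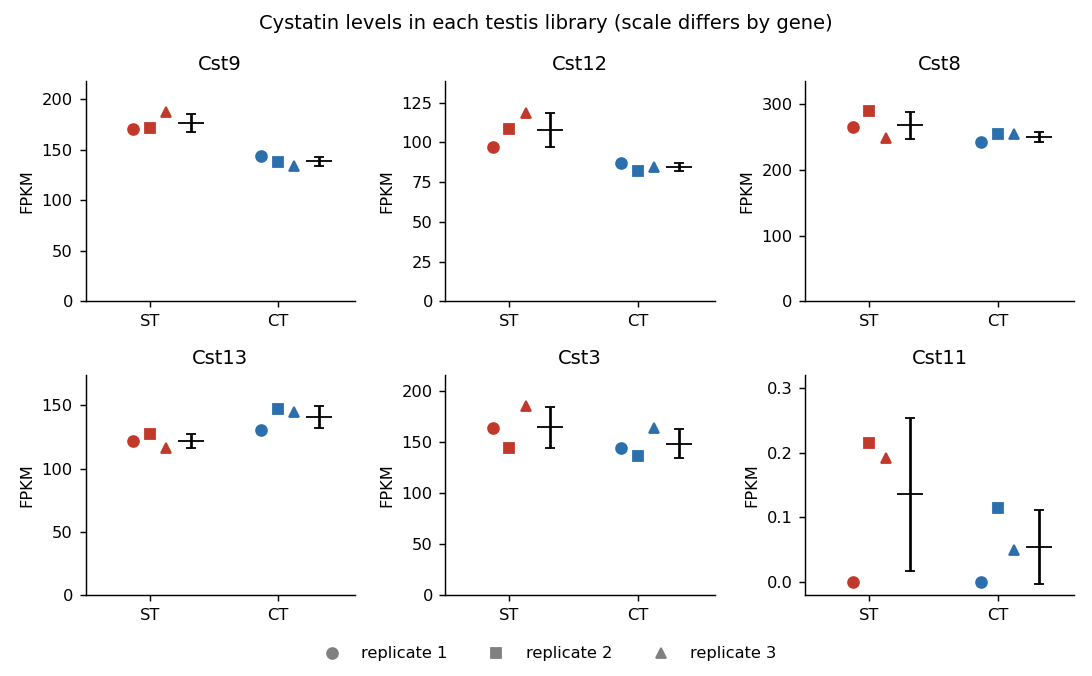
FPKM of each member in every library, ST left of CT, with the mean and SD of each group of 3. The ST points of Cst9 (171.0 to 187.0) lie above the CT points (134.0 to 143.5), the ST points of Cst13 (116.2 to 127.3) lie below the CT points (130.5 to 147.1), and those of Cst3 and Cst8 overlap.

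Cst3 (MGP_C57BL6NJ_G0027041, minus strand, 157705628 to 157709598 in the deposited table), the cathepsin inhibitor cystatin C, had 163.6, 144.6 and 185.4 FPKM in ST replicates 1, 2 and 3, against 144.6, 136.3 and 164.0 FPKM in CT replicates 1, 2 and 3. The highest value was in ST replicate 3, yet ST replicates 1 and 2 both lay within the CT range. The means were 164.5 ± 20.4 FPKM in ST and 148.3 ± 14.2 FPKM in CT (SD, n = 3 each), a log2 difference of 0.15 with an SE of 0.11. Without ST replicate 3 the difference was 0.06, and without ST replicate 2 it was 0.23, so single libraries set its size. Relative to the median of all genes it was 0.13 as deposited, 0.12 with TPM scaling and 0.01 with quantile normalization.

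Cst9 (MGP_C57BL6NJ_G0027039, plus strand, 157657890 to 157661481), testatin, had 171.0, 171.1 and 187.0 FPKM in ST replicates 1, 2 and 3, against 143.5, 138.3 and 134.0 FPKM in CT replicates 1, 2 and 3. The lowest ST library lay above the highest CT library. The means were 176.4 ± 9.21 FPKM in ST and 138.6 ± 4.77 FPKM in CT (SD, n = 3 each), 27.2% higher in ST, with a log2 difference of 0.35 and an SE of 0.07. Behind these values stood 12718 reads in the ST libraries together and 9627 in the CT libraries together.

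Cst12 (MGP_C57BL6NJ_G0027036, plus strand, 157597710 to 157601895), CRES3, had 96.9, 108.4 and 118.4 FPKM in ST replicates 1, 2 and 3, against 86.9, 82.1 and 84.6 FPKM in CT replicates 1, 2 and 3. Again the groups did not overlap, and the spread was wider in ST than in CT. The means were 107.9 ± 10.8 FPKM in ST and 84.5 ± 2.40 FPKM in CT (SD, n = 3 each), 27.7% higher in ST, with a log2 difference of 0.35 and an SE of 0.08. With TPM scaling the groups met, since ST replicate 1 stood at 222.9 TPM and CT replicate 1 at 223.9 TPM. Relative to the median of all genes, Cst9 and Cst12 stood at 0.33 and 0.33 as deposited, at 0.32 and 0.33 with TPM scaling and at 0.22 and 0.25 with quantile normalization.

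Cst8 (MGP_C57BL6NJ_G0027037, plus strand, 157607122 to 157613932), CRES, had 265.0, 288.8 and 248.6 FPKM in ST replicates 1, 2 and 3, against 241.6, 253.6 and 254.1 FPKM in CT replicates 1, 2 and 3. ST replicate 3 lay inside the CT range. The means were 267.5 ± 20.2 FPKM in ST and 249.8 ± 7.06 FPKM in CT (SD, n = 3 each), a log2 difference of 0.10 with an SE of 0.08. That sign held as deposited and turned with the scaling, to -0.019 with TPM and -0.059 with quantile normalization, and without ST replicate 2 the difference was 0.04. So no direction is given for Cst8.

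Cst13 (MGP_C57BL6NJ_G0027038, plus strand, 157633526 to 157648248), the Cymg1 gene, had 121.5, 127.3 and 116.2 FPKM in ST replicates 1, 2 and 3, against 130.5, 147.1 and 144.6 FPKM in CT replicates 1, 2 and 3. Every ST library lay below every CT library, the only member of the 5 of which that was so. The means were 121.6 ± 5.56 FPKM in ST and 140.7 ± 8.98 FPKM in CT (SD, n = 3 each), a difference of -13.6% of the CT mean and a log2 difference of -0.21 with an SE of 0.08. Relative to the median of all genes it was -0.22 as deposited, -0.23 with TPM scaling and -0.34 with quantile normalization.

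Cst11 (MGP_C57BL6NJ_G0027034, minus strand, 157575891 to 157578776), CRES2, known as an epididymal cystatin, was near absent. It had 0, 0.215 and 0.192 FPKM in ST replicates 1, 2 and 3, and 0, 0.114 and 0.049 FPKM in CT replicates 1, 2 and 3. That is 9 reads over the ST libraries and 3 over the CT libraries, and since both mates of a fragment may have been counted, these may stand for fewer fragments. No fold is given at this depth.

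**Figure D2:**
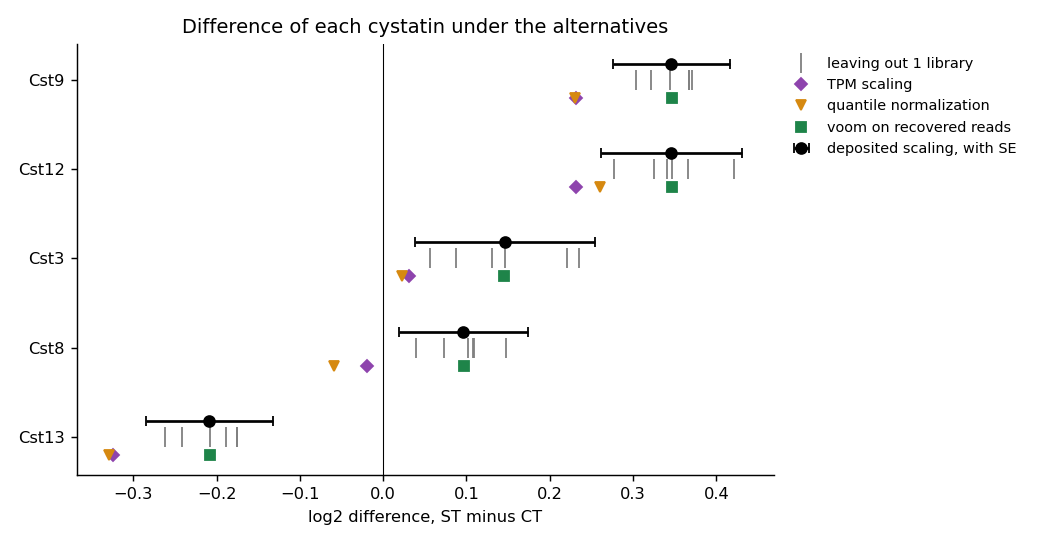
Log2 difference (ST minus CT) of each member above the filter: as deposited with its SE (black), leaving out 1 library in turn (grey ticks), with TPM scaling (diamonds), with quantile normalization (triangles) and with voom (squares). Cst9 and Cst12 lie above 0 and Cst13 below 0 under each of these settings, and Cst8 lies below 0 at -0.019 and -0.059 under the TPM and quantile scalings.

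The levels per length fell in the order Cst8, Cst9, Cst3, Cst13 and Cst12 by their means over all libraries. Of the 4 neighbouring pairs in that order 1 was separated over all 6 libraries, Cst8 above Cst9, and the ranges of the other 3 pairs overlapped. Cst9 lay above Cst3 in 3 of 3 ST libraries and in 1 of 3 CT libraries. Cst13 lay above Cst12 in 2 of 3 ST libraries and in 3 of 3 CT libraries.

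Ratios within a library do not depend on its scaling. The ratio of Cst9 to Cst13 was 1.41, 1.34 and 1.61 in ST replicates 1, 2 and 3, against 1.100, 0.940 and 0.927 in CT replicates 1, 2 and 3. Cst9 was thus above Cst13 in every ST library and below it in 2 of 3 CT libraries. The ratio of Cst12 to Cst13 averaged 0.889 ± 0.116 in ST and 0.603 ± 0.0563 in CT, and that of Cst8 to Cst13 averaged 2.20 ± 0.0657 in ST and 1.78 ± 0.0666 in CT (SD, n = 3 each), with no overlap in either. By contrast the ratio of Cst9 to Cst12 averaged 1.64 ± 0.107 in ST and 1.64 ± 0.0508 in CT, and the groups overlapped. As deposited, Cst9 and Cst12 were higher and Cst13 lower in every ST library, so their ratios to Cst13 could not overlap. These ratios restate the differences that were in view when the members were chosen, and nothing more is read from them. The ratio of Cst8 also has the lower Cst13 as its base and gives no direction for Cst8. The pair Cst9 and Cst12 kept its ratio within the spread of the replicates.

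Within a group the libraries also varied. On the log2 scale Cst8 and Cst13 deviated from their group means to the same side in 6 of 6 libraries, and Cst9 and Cst12 did so in 4 of 6. Cst9 and Cst13 deviated to opposite sides in 5 of 6, and so did Cst9 and Cst8. The 3 deviations of a group sum to 0 and the genes share libraries and scaling, so these counts describe 6 libraries and are not independent. ST replicate 2 was the library highest for both Cst8 and Cst13 within its group, and ST replicate 3 was highest for Cst3, Cst9 and Cst12.

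**Figure D3:**
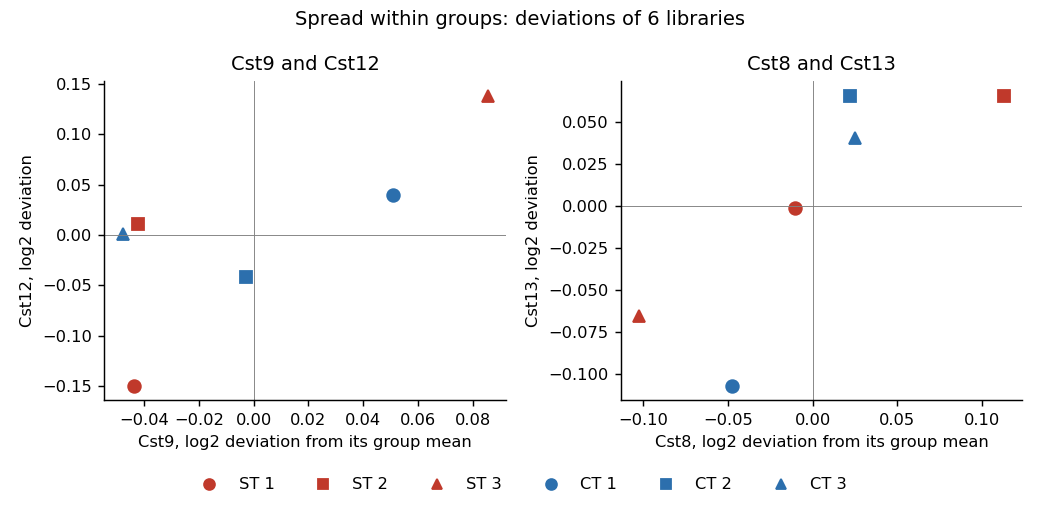
Deviations from the group mean (log2 scale) of Cst12 against Cst9 on the left and of Cst13 against Cst8 on the right, 1 point per library (ST red, CT blue, 1 symbol per replicate number). Cst8 and Cst13 lie on the same side of 0 in 6 of 6 libraries, with ST replicate 1 close to 0 for both, and Cst9 and Cst12 in 4 of 6.

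Sertoli cell markers, which bear on Cst9 and Cst12, lay mostly above 0. Of 22 tested markers 19 had a log2 difference above 0, as did 52.2% of all genes, and 3 below, with a median of 0.23 (0.13 with TPM scaling) against 0.01 for all genes, and summed FPKM of the list came to 968.4 to 1150 in ST libraries and 811.3 to 895.9 in CT libraries. limma called 0 of them, and 12 of the 22 had an unadjusted p under 0.05, all higher, against 17.4% of all genes. Without overlap, 13 were higher, against 13.7% of all genes. voom called 2, both higher, against 0.318% of all genes. These were Amhr2 (the receptor for anti-Müllerian hormone) and Defb36 (a defensin of the Sertoli cell), which are named after their values were seen. The 3 most abundant markers were Clu, a secreted chaperone, at 276.5 ± 30.2 FPKM in ST and 232.1 ± 17.4 FPKM in CT, Defb19, a defensin, at 260.0 ± 31.9 FPKM in ST and 226.1 ± 10.0 FPKM in CT, and Aard at 115.8 ± 5.42 FPKM in ST and 98.4 ± 6.08 FPKM in CT (SD, n = 3 each). Set against the mean log2 level of the tested Sertoli markers, Cst9 stood at 3.49 ± 0.016 in ST and 3.35 ± 0.024 in CT, a difference of 0.13 with no overlap, and Cst12 also differed by 0.13, with overlap. Both differences were smaller than the 0.35 seen without that setting, and this was not particular to the Sertoli list: relative to elongating spermatid markers both genes also differed by 0.13, and relative to macrophage markers both differed by 0.20, with overlap in each case. The part of the Sertoli markers in the results for Cst9 and Cst12 was not tested.

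Of the germ cell lists, which bear on Cst8 and Cst13, that of elongating spermatids lay mostly above 0, as the Sertoli list did, and that of round spermatids did not. Round spermatid markers lay 8 above 0 and 8 below of 16 tested, with a median of 0.01 and sums of 1484 to 1681 FPKM in ST and 1429 to 1636 FPKM in CT, and 0 were called by limma or voom and 0 had an unadjusted p under 0.05. The most abundant, the kinase gene Tssk2, averaged 344.9 ± 27.6 FPKM in ST and 322.7 ± 31.8 FPKM in CT (SD, n = 3 each), and Zpbp2 and Spata16, acrosome genes, had log2 differences of 0.10 and 0.14. Elongating spermatid markers lay 13 above 0 and 2 below of 15, with a median of 0.25 (0.14 with TPM scaling) and sums of 34312 to 36743 FPKM in ST and 26654 to 31587 FPKM in CT. limma called 0 of these, and 9 of the 15 had an unadjusted p under 0.05, all higher, against 17.4% of all genes. Without overlap, 9 were higher, against 13.7% of all genes. voom called 2, both higher (against 0.318% of all genes), the transition protein gene Tnp2 and the protamine gene Prm2. The protamine gene Prm1, with these the most abundant, had a log2 difference of 0.21 and a limma adjusted p of 0.360. Cst13 was lower in ST relative to both germ cell lists, by 0.22 on the log2 scale against round spermatid markers, with overlap, and by 0.43 against elongating spermatid markers, without overlap. This was not particular to germ cell lists. Cst13 differed by -0.42 against Sertoli and -0.27 against epididymis markers, without overlap, and by -0.36 against macrophage markers, with overlap. Against Leydig and peritubular markers it differed by 0.07, with overlap. The part of any of these lists in the Cst13 result was not tested.

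The testis samples held little epididymal RNA by its markers. Of 24 epididymis markers found, 6 passed the filter and 4, Adam7, Lcn10, Lcn8 and Spag11a, were at 0 in every library. limma and voom called 0 of the 6. Of these, 2 had an unadjusted p under 0.05, against 17.4% of all genes. They were Defb41, higher, and Defb15, lower, with limma adjusted p of 0.286 and 0.199. Both were without overlap, against 13.7% and 10.8% of all genes, and Defb41 is named after its values were seen. The list summed to 14.6 to 17.8 FPKM in ST and 15.8 to 17.5 FPKM in CT. Of the tested markers, 3 lay above 0 and 3 below. The most abundant of these, the defensin genes Defb30, Defb21 and Defb15, had 2.77 to 3.64 FPKM as group means in ST and 3.07 to 3.95 FPKM in CT, against 249.8 FPKM or more for Cst8, the member known from both organs. Among the remaining lists, macrophage markers, which were set beside Cst3, lay 8 above 0 and 3 below. limma and voom called 0 of them, and 1, the Fc receptor gene Fcgr3, had an unadjusted p under 0.05. Their sums were 232.3 to 249.9 FPKM in ST and 204.1 to 224.8 FPKM in CT. These sums were carried by Aif1, at 193.0 ± 4.64 FPKM in ST and 174.6 ± 20.3 FPKM in CT, and without it they overlapped, at 42.1 to 59.5 FPKM in ST and 27.6 to 58.7 FPKM in CT. C1qb, a complement gene and the next most abundant, averaged 12.8 ± 4.13 FPKM in ST and 9.44 ± 4.83 FPKM in CT. Relative to the mean log2 level of the macrophage markers Cst3 differed by less than the spread between libraries. This was not particular to that list. Cst3 differed by -0.07 against Sertoli, 0.14 against round spermatid, -0.07 against elongating spermatid and 0.09 against epididymis markers, with overlap in each case. Leydig cell markers lay 1 above 0 and 14 below, with a median of -0.20 and sums of 1035 to 1470 FPKM in ST and 1158 to 1626 FPKM in CT. limma called 0 of them, and 4 of the 15 tested had an unadjusted p under 0.05, all lower, against 17.4% of all genes. Without overlap, 5 were lower, against 10.8% of all genes. voom called 2, both lower (against 1.12% of all genes), Star (cholesterol transport into mitochondria, adjusted p = 0.0148) and Prlr (the prolactin receptor, adjusted p = 0.0466). Insl3, a peptide hormone, made up most of the sum, at 982.3 ± 221 FPKM in ST and 1003 ± 170 FPKM in CT, followed by the steroid enzyme genes Cyp17a1 and Hsd3b6 with log2 differences of -0.45 and -0.66 (limma adjusted p of 0.331 and 0.252). Peritubular and smooth muscle markers lay 1 above 0 and 10 below, with a median of -0.24. Their sums were 297.9 to 335.9 FPKM in ST and 297.3 to 314.6 FPKM in CT. Most of each sum came from Actg2, the 1 marker above 0. It averaged 234.5 ± 10.7 FPKM in ST and 202.4 ± 17.5 FPKM in CT, so the sums do not follow the list's median. limma called 0 of the markers. Of the 11 tested, 6 had an unadjusted p under 0.05, 1 higher and 5 lower, against 17.4% of all genes. Without overlap, 5 were lower and 1 higher, against 10.8% and 13.7% of all genes. voom called 1, Cald1 (an actin-binding protein, adjusted p = 0.0245), lower, against 1.12% of all genes. The most abundant, the actin and myosin genes Actg2, Myl9 and Acta2, had log2 differences of 0.21, -0.01 and -0.53 (limma adjusted p of 0.251, 0.971 and 0.219). Star, Prlr and Cald1 are named after their values were seen. The mean log2 level of the tested Leydig markers was itself lower in ST, at 3.88 to 3.98 against 4.03 to 4.51 in CT. That of the peritubular and smooth muscle markers was 2.53 to 2.84 in ST and 2.81 to 3.14 in CT. Relative to these bases, Cst3, Cst9 and Cst12 stood higher in ST without overlap, and Cst13 differed by 0.07 with overlap. A gene with no difference of its own would also stand higher against a lower base, so no direction is read from these values. Cst8 differed by 0.38 against Leydig markers, without overlap, and by 0.37 against peritubular and smooth muscle markers, with overlap. With the same lower bases, this gives no direction for Cst8. The part of these lists in the members' results was not tested.

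The neighbours in the cluster that are not members were tested in the fit over all genes and none was called. Cstl1, a cystatin-like gene at the edge of the cluster, averaged 135.9 ± 7.32 FPKM in ST and 124.0 ± 5.31 FPKM in CT (SD, n = 3 each), a log2 difference of 0.13 with a limma adjusted p of 0.378, and its groups overlapped. 8030411F24Rik, which lies next to Cst12, averaged 9.47 ± 2.77 FPKM in ST and 7.50 ± 0.444 FPKM in CT, with a limma adjusted p of 0.422. 9230104L09Rik, between Cst9 and Cst3, averaged 18.6 ± 2.59 FPKM in ST and 20.3 ± 7.32 FPKM in CT, with a limma adjusted p of 0.896. Both are listed as cystatin domain genes in RefSeq. Within 100 kb outside the cluster, Nxt1, a factor of nuclear RNA export, had 117.1 to 134.2 FPKM in ST and 99.0 to 108.7 FPKM in CT, without overlap, and its log2 difference of 0.28 had an adjusted p of 0.207 by limma and 0.0854 by voom. An unannotated locus beside Gzf1 and the zinc finger gene Gzf1 itself had log2 differences of 0.55 and -0.12 and limma adjusted p of 0.215 and 0.499. Cst13, lower in every ST library, thus lies between Cst8 and Cst9.

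The proteins that cystatins act on or work beside were read from 4 lists, of which 39 genes passed the filter. limma called 0 of these 39 and voom 0, against 0.026% and 1.44% of all genes tested, and the lowest adjusted p was 0.208 by limma and 0.0660 by voom. Of the 39, 5 (12.8%) had an unadjusted p under 0.05, all higher in ST, and 8 (20.5%) had groups that did not overlap, both below the shares of 17.4% and 24.5% over all genes tested. The lists were drawn up with earlier results of these data known.

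Among the papain-like and legumain proteases, the targets of the classical cystatins, 6 of 11 tested genes had a log2 difference above 0 and 5 below, with a median of 0.04. Ctsl, cathepsin L, was the most abundant and had 165.1, 170.6 and 173.0 FPKM in ST replicates 1, 2 and 3, against 155.0, 145.9 and 134.2 FPKM in CT replicates 1, 2 and 3. Its groups did not overlap, yet its log2 difference of 0.23 with an SE of 0.07 had a limma adjusted p of 0.217. Lgmn, legumain, averaged 21.8 ± 3.78 FPKM in ST and 17.9 ± 2.51 FPKM in CT, and Ctsb, cathepsin B, averaged 19.4 ± 2.82 FPKM in ST and 21.4 ± 5.50 FPKM in CT (SD, n = 3 each). Neither passed, with limma adjusted p of 0.356 and 0.756. Cst3 thus stood about level with Ctsl per length and well above the other cathepsins in both groups.

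Proprotein convertases, a group of secretory proteases of which PC2 was reported as a target of CRES in vitro, had 4 of 5 tested genes above 0, with a median of 0.13. Pcsk4, the convertase of male germ cells, averaged 62.6 ± 6.37 FPKM in ST and 57.5 ± 8.87 FPKM in CT (SD, n = 3 each), with a limma adjusted p of 0.607. Mbtps1 and Pcsk7 had log2 differences of 0.07 and -0.03. Pcsk2, the gene of PC2, stayed under the filter at 0.408 ± 0.0471 FPKM in ST and 0.412 ± 0.0850 FPKM in CT. The other cystatins of the table had 2 of 6 tested genes above 0 and 4 below, with a median of -0.08, and Cstb, the intracellular cystatin B, averaged 16.3 ± 2.42 FPKM in ST and 17.4 ± 1.22 FPKM in CT, with a limma adjusted p of 0.686.

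Genes whose pattern was most like each member were taken from 7042 protein-coding genes with a mean of at least 5 FPKM, as the 3 highest Pearson correlations over the 6 libraries. They are the top of a long ranking, share depth and scaling with the member, and are given as a description. Cst9 was most like Sept9 (r = 0.999), Copg1 and Minos1, and Cst12 was most like Inppl1 (r = 0.986), Ints9 and Ifitm7. Cst13 was most like Ppef1 (r = 0.975), Hoxd8 and 4933406M09Rik. Cst8 was most like Ube2d2b (r = 0.983), Sh3glb1 and Ppa2, and Cst3 was most like Flii (r = 0.985), Mau2 and Rack1. None of these 15 genes was named for more than 1 member. On deviations from the group means, which leave out the difference between ST and CT, the closest genes were Cops8 for Cst9, Nop16 for Cst12, Capza3 for Cst13, Zfand4 for Cst8 and Ctsd, cathepsin D, for Cst3.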

How the data were processed

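Ribosomal-RNA-depleted total RNA from testis was sequenced with paired reads of 150 bases, per the labels' protocols. The authors deposited 1 table of FPKM values per gene, scaled for gene length and library. Per the submitters' processing notes the tools included HISAT2, StringTie and DESeq2 and the builds mm10 and mm39, with versions and roles not given. None of 24684 symbols had the GRCm38 start of the reference annotation, so the table's build is left unsettled and no coordinate was converted. In each library, 100% of the products of FPKM and gene length were whole multiples of 1 number (tolerance 0.001), from which whole reads were recovered. Low counts were even in 56.2% to 59.0% of cases, so both mates of a fragment may have been counted and reads are not taken as independent molecules. The precision set by depth covers counting error only.

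Genes that reached 0.5 FPKM in 3 or more of the 6 libraries were fitted with limma 3.58.1 (R 4.3.3) on log2(FPKM + 0.5), two-sided, ST against CT, with a variance trend and Benjamini-Hochberg adjustment at 0.05; differences on this scale understate those of low genes. limma's voom on recovered reads, with the library totals implied by the FPKM values, was an alternative. These totals were 0.953 to 0.992 times the summed reads in the ST libraries and 1.000 to 1.055 times in the CT libraries. The test was checked on simulated data. Replicates are separate samples per the labels, and p-values measure the spread between them. The members, lists and tests were chosen with earlier results of these data known. Named genes were all members, all filtered genes within 100 kb of the cluster, the 3 most abundant genes of each list where limma called none, and the 3 most alike genes per member, of which the text gives part; exceptions are marked. Sequences are from RefSeq (GRCm38.p6) and GENCODE M21, with coding sequences aligned in Biopython 1.88.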

Additional observations from a re-analysis of the deposited data

How the results depend on the processing

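The log2 differences of Cst9, Cst12 and Cst13 kept their sign in all 14 alternatives run (0.23 to 0.37, 0.23 to 0.42 and -0.33 to -0.18), as did Cst3 (0.02 to 0.23). Of the 14 alternatives only TPM scaling and quantile normalization changed the scaling between libraries, since voom used the totals implied by the FPKM values. Cst8 turned to -0.019 with TPM scaling and -0.059 with quantile normalization, and the cause was not tested. The number of members with groups that do not overlap was 3 in the main setting and 2 with TPM scaling, where Cst12 overlapped. It was 3 to 4 when 1 library was left out, where smaller groups separate more easily. The share over all genes, 24.5%, was counted in the main setting only, so nothing is read from these counts. Neighbours in the order of levels separated in 1 pair, and in 1 to 2 when 1 library was left out, with 2 without ST replicate 3 or CT replicate 2. Over all genes, limma called 5, against 1 without a filter, 3 at 1 FPKM, 277 with voom, 0 with the replicate block and 0 to 2 when 1 library was left out. Voom without 1 library, added after seeing the data, gave 22 to 1058 calls over all genes and 0 to 2 among the 39 pathway genes; the pathway count stayed at 0 in every limma alternative. Same-numbered ST and CT libraries did not deviate together (r of -0.03 to -0.09), so the numbers were not taken as pairs.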

Other observations

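Secreted inhibitors of serine and metalloproteases, a group beside the cystatins, had 17 tested genes, 8 above 0 and 9 below on the log2 scale, with a median of -0.02, and limma and voom called 0 of them. The abundant Spink2, an inhibitor of acrosin known from the acrosome of spermatids, had 348.0, 355.7 and 343.4 FPKM in ST replicates 1, 2 and 3, against 317.2, 322.0 and 302.1 FPKM in CT replicates 1, 2 and 3. The groups did not overlap, and the limma adjusted p was 0.286. Spint2 averaged 74.9 ± 7.20 FPKM in ST and 62.0 ± 6.03 FPKM in CT, and Timp2, an inhibitor of matrix metalloproteases, averaged 62.2 ± 4.86 FPKM in ST and 64.8 ± 8.41 FPKM in CT (SD, n = 3 each), with limma adjusted p of 0.236 and 0.818. Wfdc10 and Eppin, whey acidic protein domain genes named after their values were seen, averaged 49.6 ± 7.68 and 44.3 ± 4.46 FPKM in ST and 34.3 ± 7.21 and 36.5 ± 3.46 FPKM in CT, with no overlap between the groups and limma adjusted p of 0.208 and 0.239.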
